A study of Mus musculus with 33 samples.

Results

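The genes described here are Fgfr3, Rxfp1, Robo2, Sema6c, Jag2 and Rapgef1, which encode a growth factor receptor, a relaxin receptor, a guidance receptor, a semaphorin, a Notch ligand and an activator of the small GTPase Rap1. Every splicing event of these 6 genes in the 20 deposited tables was taken, whatever the tissue, genotype or event type, which gave 14 of 549 events and 6 of 376 genes. The genes were selected on their inclusion values in these same tables, so their changes are a description and no test of the group was made. The study sequenced RNA from FVB mice whose Dmpk gene carries a lengthened run of CTG, the repeat that underlies myotonic dystrophy. The alleles are written Dmpk 480/480 (both copies with 480 repeats), Dmpk +/480 (a single expanded copy) and Dmpk+/+ (wild type). Tables compare 480/480 myotubes, +/480 myotubes, 480/480 tibialis anterior (TA, a lower leg muscle) and 480/480 choroid plexus with wild type of the same tissue. Myotubes are multinucleate muscle cells differentiated in culture, here derived from separate mice with 3 libraries per genotype. Mouse ages and the cell type from which the cultures were started are not given in the sources used here, and expression levels were not used, so the myotube label was not checked against marker levels.

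Fibroblast growth factors bind receptors of the FGFR family, whose outer part is built of immunoglobulin-like domains, and a pair of alternative exons (IIIb and IIIc) encodes part of the third domain and sets which ligands bind. Notch ligands such as Jag2 carry a row of EGF-like repeats and act on receptors of the neighbouring cell, where Notch activity holds back muscle differentiation. Robo receptors bind Slit proteins and semaphorins act through plexins to steer growing axons and migrating cells. Rapgef1, also called C3G, is recruited by Crk adaptors below growth factor receptors and loads Rap1 with GTP. Expanded CUG repeat RNA is known to bind muscleblind proteins, splicing regulators that recognise a pyrimidine-GC-pyrimidine word in RNA.

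The coding exons on which the results turn are printed to show what is gained or lost, read 5′ to 3′ on the transcript strand from GENCODE M21 transcripts, whose exon coordinates on mm10 were the same as those in the tables. Capitals mark each TGCT or TGCC or CGCT or CGCC, the spellings of the muscleblind word in DNA letters, including overlapping ones.
Fgfr3 skipped exon (IIIb), chr5:33731281-33731431, plus strand: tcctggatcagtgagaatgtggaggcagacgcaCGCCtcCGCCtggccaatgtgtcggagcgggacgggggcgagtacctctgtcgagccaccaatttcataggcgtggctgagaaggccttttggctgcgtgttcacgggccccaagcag
Fgfr3 next exon (IIIc), chr5:33732117-33732261, plus strand: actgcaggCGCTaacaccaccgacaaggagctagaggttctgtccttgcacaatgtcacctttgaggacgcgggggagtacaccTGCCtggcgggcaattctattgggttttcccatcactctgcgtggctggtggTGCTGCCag
Rxfp1 skipped exon, chr3:79682441-79682546, minus strand: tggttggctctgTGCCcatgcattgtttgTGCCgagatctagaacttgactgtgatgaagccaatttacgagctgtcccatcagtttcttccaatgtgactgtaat
Robo2 skipped exon, chr16:73906817-73906999, minus strand: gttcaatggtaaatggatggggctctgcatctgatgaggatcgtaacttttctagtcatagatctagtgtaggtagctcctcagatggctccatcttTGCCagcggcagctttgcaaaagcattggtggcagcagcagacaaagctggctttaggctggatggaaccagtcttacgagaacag
Jag2 skipped exon, chr12:112915605-112915718, minus strand: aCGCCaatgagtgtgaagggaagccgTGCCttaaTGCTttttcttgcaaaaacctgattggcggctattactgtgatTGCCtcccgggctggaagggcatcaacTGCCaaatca
Rapgef1 skipped exon, chr2:29720643-29720738, plus strand: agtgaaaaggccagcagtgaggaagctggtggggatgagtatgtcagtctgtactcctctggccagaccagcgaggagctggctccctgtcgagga

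All 14 events were in myotubes: 9 in 480/480 and 5 in +/480 cells, and none of the 6 genes is listed in TA or choroid plexus. An event is listed only if it passed the authors' selection of at least 5 reads on average, an FDR of 0.05 or less and an inclusion difference of 0.1 or more, that is 10 percentage points. "Rose" and "fell" describe such events. Absence from a table was not tested as a difference. Inclusion means how many percent of the transcripts crossing a region contain the exon or keep the intron, and each value belongs to 1 library. Depth behind single values is unknown, since counts were not used here. With 3 libraries a group, no exact permutation test (two-sided) can go below p = 0.10, so the authors' FDR is given and no p-value per event was added. Groups were fully apart at 8 of 9 events in 480/480 myotubes, where 89.7% of all 243 listed events did not overlap, and at 5 of 5 in +/480 myotubes, where 80.9% of 110 did not. Since the values chose the genes, nothing is read from these shares. The smallest change among the events of these genes, 10.5 points in Rapgef1, lies just inside the authors' limit, and events below the limit were not analysed here.

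Fgfr3, a receptor tyrosine kinase for fibroblast growth factors, rose at its IIIb exon of 151 bases in both myotube comparisons. Inclusion was 100%, 68.9% and 79.9% in 480/480 myotubes, against 45.3%, 26.0% and 30.7% in wild type. In +/480 myotubes it was 100%, 62.4% and 66.6%, against the same wild-type libraries. Every expansion library lay above every wild-type library, and in each genotype the library listed first was the highest. The change was 48.9 points in 480/480 (82.9% ± 15.8 against 34.0% ± 10.1, SD, n = 3 each), where the authors' deposited table gives an FDR of 0.000927. In +/480 myotubes the change was 42.3 points (76.3% ± 20.6 against 34.0% ± 10.1, SD, n = 3 each), with an FDR of 0.0311 in the authors' deposited table. By the size of the change this exon ranked 11 of 184 skipped exons in 480/480 and 12 of 69 in +/480 myotubes.

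The Fgfr3 intron between the exons of 191 and 145 bases was also listed as retained more often in both genotypes. Retention was 100%, 71.2% and 88.5% in 480/480 myotubes, against 59.2%, 38.4% and 45% in wild type. For +/480 myotubes the values were 100%, 71.8% and 74.9%, again against those wild-type libraries. Groups did not overlap, and the order of the libraries within each genotype was that of the skipped exon. Retention thus rose by 39.0 points in 480/480 (86.6% ± 14.5 against 47.5% ± 10.6, SD, n = 3 each; FDR 0.00666 in the authors' deposited table). It rose by 34.7 points in +/480 (82.2% ± 15.5 against 47.5% ± 10.6, SD, n = 3 each; FDR 0.0236 in the authors' deposited table). This intron spans 1782 bases and contains the IIIb exon, with 946 bases before it and 685 after it. The IIIb exon therefore lies in both events, but whether reads inside exons or introns were counted is not known. Both events also have the same flanking exons, so the direct join of the 191- and 145-base exons is the excluded form in both. The events are therefore not independent, and a like order of libraries is partly built in. How much of either value comes from shared reads was not tested.

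The annotation shows what the Fgfr3 forms encode. Of 17 annotated Fgfr3 transcripts, 4 hold the IIIb exon, 6 hold the IIIc exon and 0 hold both, while 1 keeps the whole intron. The deposited event, however, places the IIIb exon between the 191-base exon and the IIIc exon, a joined form that is in no annotated transcript. One full-length transcript of each kind was read from its annotated start codon, and the one with the IIIc exon has 800 codons and the one with the IIIb exon 802. The same reading with both exons would meet a stop after 358 codons, with 10 exon joins still to follow. The tables do not say whether the counted transcripts continued into the IIIc exon or past it.

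**Figure D1:**
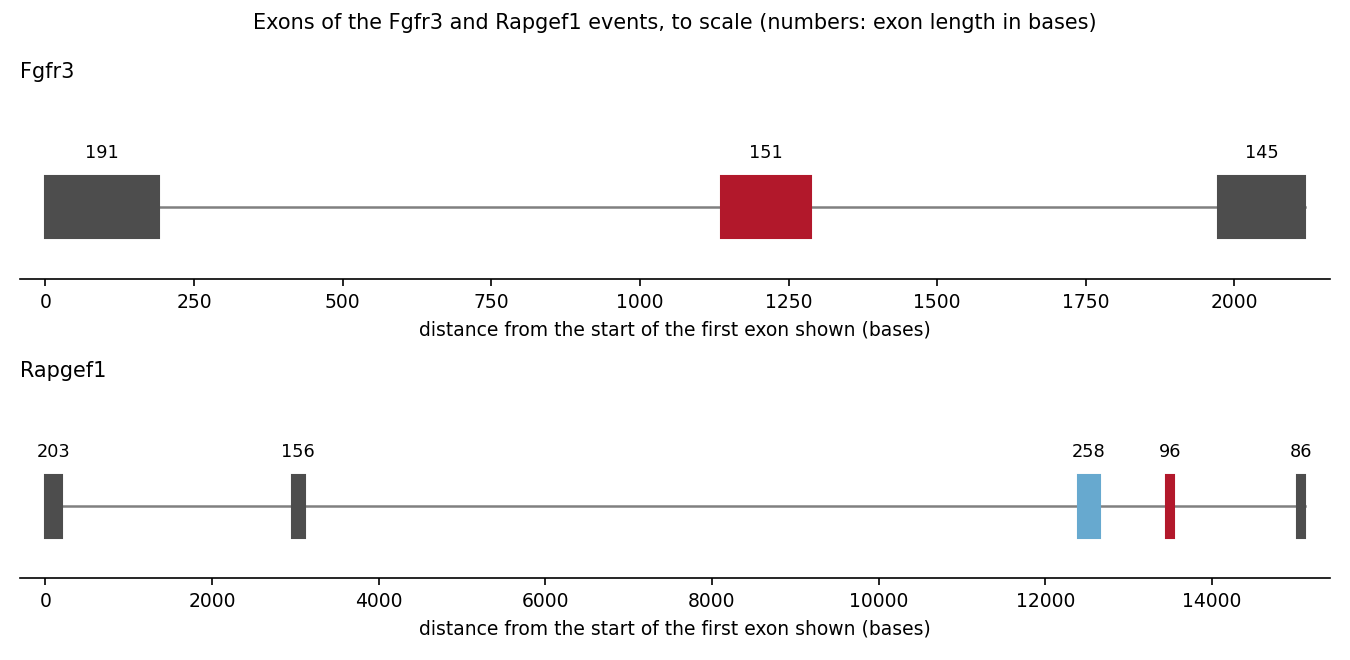
Exons of the Fgfr3 events (top) and the Rapgef1 events (bottom), drawn to scale along the gene in bases from the start of the first exon shown, with each exon's length above it. Red marks the skipped exons of 151 and 96 bases, blue the Rapgef1 exon of 258 bases, and dark grey the exons around them; the 151-base exon lies inside the Fgfr3 intron listed as retained.

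Rxfp1, the receptor for relaxin, is a G protein-coupled receptor with a large outer part of leucine-rich repeats. It rose in +/480 myotubes at the fourth of 18 exons, which has 106 bases and starts at codon 96 of 758. Inclusion was 90.9%, 100% and 100% in +/480 myotubes, against 38.3%, 58.0% and 67.4% in wild type. The lowest +/480 library was 23.5 points above the highest wild-type library. The rise was 42.4 points (97.0% ± 5.25 against 54.6% ± 14.9, SD, n = 3 each), and the FDR in the authors' deposited table is 0.0290. Because 106 is not a multiple of 3, skipping shifts the reading frame, and the skipped form meets a stop after 102 codons with 13 exon joins to follow. Of 4 annotated Rxfp1 transcripts, 1 holds the exon.

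Robo2, a receptor for Slit proteins, had the largest member change, again in +/480 myotubes. Its 183-base exon was at 100% in each of the 3 +/480 libraries, against 50.4%, 22.5% and 63.6% in wild type. The wild-type libraries were widely spread and all lay at least 36.4 points below the +/480 libraries. Inclusion rose by 54.5 points (100% ± 0 against 45.5% ± 21, SD, n = 3 each), rank 2 of 69 skipped exons in this table, and the authors' deposited table gives an FDR of 4.58e-05. Among all 110 events of this comparison, 8.18% had every +/480 library at 100%. The exon adds 61 codons in frame at codon 1295 of 1508, in the tail of the receptor inside the cell, and 2 of 13 annotated transcripts hold it, both annotated as incomplete at either end.

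Sema6c, a transmembrane semaphorin, fell at a 145-base exon of the 5′ untranslated region (chromosome 3, 95163127 to 95163271, plus strand) in both comparisons. Inclusion was 31.3%, 28.0% and 81.6% in 480/480 myotubes, against 67.2%, 100% and 100% in wild type. In +/480 myotubes it was 40.5%, 36.9% and 47.6%, against the same wild-type values. The 480/480 groups overlap, because the 480/480 library at 81.6% lies above the lowest wild-type library, while all +/480 libraries lie at least 19.6 points below wild type. Inclusion fell to 47.0% ± 30.0 in 480/480, against 89.1% ± 18.9 in wild type (SD, n = 3 each), a change of -42.1 points with an FDR of 0.00332 in the authors' deposited table. With medians in place of means this change was -68.7 points. It fell to 41.7% ± 5.44 in +/480, against 89.1% ± 18.9 (SD, n = 3 each), a change of -47.4 points with an FDR of 0.00216 in the authors' deposited table. The exon is annotated in 1 of 15 Sema6c transcripts, before the start codon, so its inclusion does not alter the encoded protein in that transcript.

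**Figure D2:**
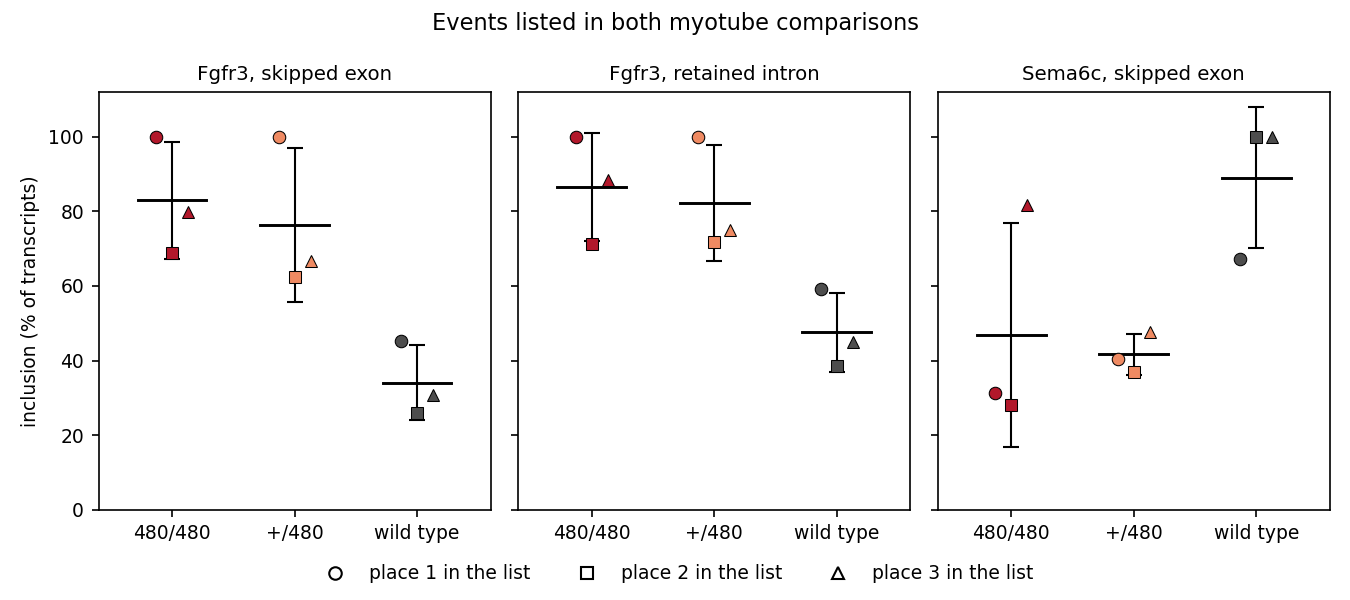
Inclusion or retention in percent (vertical axis) of the Fgfr3 skipped exon, the Fgfr3 retained intron and the Sema6c skipped exon in 480/480, +/480 and wild-type myotubes. Each symbol is 1 library, with its shape giving its place in the deposited list, and bars show the mean with the SD (n = 3); both Fgfr3 events have every expansion library above wild type, and the 480/480 library at 81.6% is the 1 that overlaps wild type at Sema6c.

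Fgfr3 and Sema6c are the members listed with 1 and with 2 expanded alleles, at the same exons with the same flanking exons. Both comparisons use the same wild-type libraries: all 48 events shared by the 2 myotube tables have identical wild-type values, so likeness between the comparisons is partly built in. The Fgfr3 exon was 6.60 points higher in 480/480 than in +/480 myotubes, the retained intron 4.33 points higher and the Sema6c exon 5.30 points higher. Libraries of the 2 genotypes overlapped at all 3 events, and the difference was not tested. Without the 480/480 library listed first, the Fgfr3 differences became -1.93 points for the exon and -2.38 points for the intron. Without the 480/480 library at 81.6% the Sema6c difference became -12.0 points.

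Jag2, a Notch ligand, rose in 480/480 myotubes at a 114-base exon that encodes part of the row of EGF-like repeats. Inclusion was 66.8%, 51.4% and 63.8% in 480/480 myotubes, against 36.8%, 34.4% and 31.9% in wild type. Wild-type libraries lay within a few points of each other, and the lowest 480/480 library was 14.6 points above them. The rise was 26.3 points (60.7% ± 8.16 against 34.4% ± 2.45, SD, n = 3 each), rank 59 of 184 skipped exons, with an FDR of 0.00192 in the authors' deposited table. The exon is number 10 of 26 and starts at codon 423. Its 38 codons are in frame, so the form without it has 1209 codons and the form with it 1247.

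**Figure D3:**
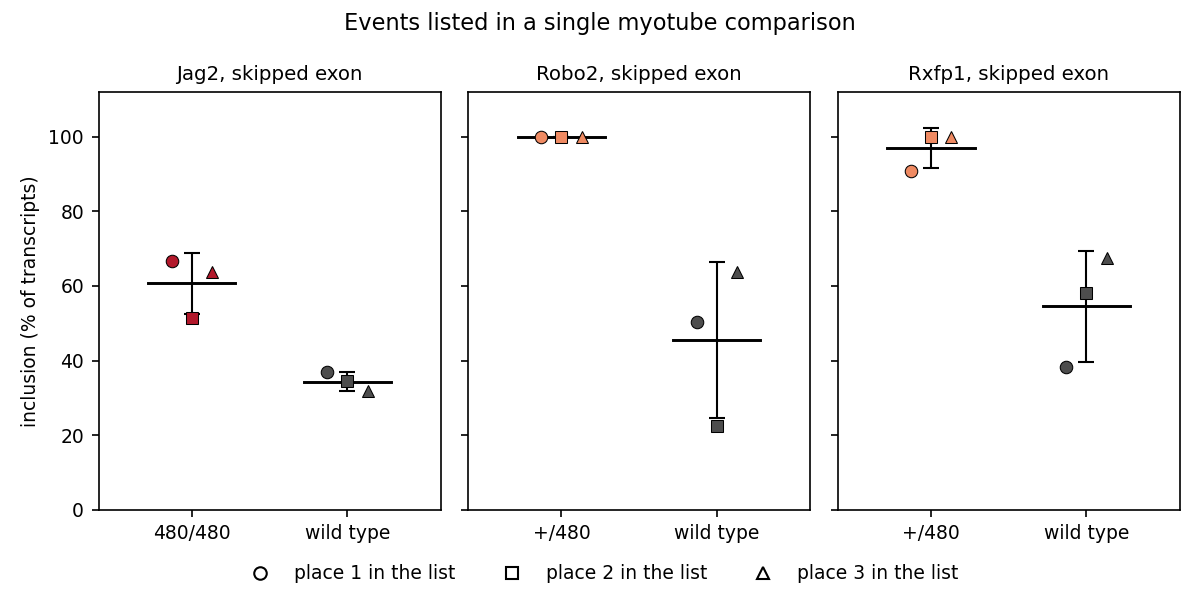
Inclusion in percent (vertical axis) of skipped exons of Jag2 in 480/480 and wild-type myotubes, and of Robo2 and Rxfp1 in +/480 and wild-type myotubes. Each symbol is 1 library and bars show the mean with the SD (n = 3); expansion libraries lie above wild type in all 3 panels, and Robo2 is at 100% in every +/480 library.

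Rapgef1, the exchange factor for Rap1, had 5 events in 480/480 myotubes that all involve the same 96-base exon. In each event the inclusion of that exon, or its share against another exon, was lower in 480/480. These 5 events share reads and are not independent. Where the 96-base exon follows the 156-base exon, inclusion was 57.5%, 48.9% and 38.5% in 480/480 myotubes, against 78.4%, 88.5% and 75.9% in wild type. Where it follows the 258-base exon, inclusion was 9.5%, 6% and 6.70% in 480/480, against 19.0%, 19.7% and 16.3% in wild type. Neither pair of groups overlapped, but the level after the 156-base exon was several times that after the 258-base exon in both genotypes. The skipped form differs between these events, since it joins the 156-base exon to the 86-base exon in 1 and the 258-base exon to it in the other. The levels therefore do not tell after which exon the 96-base exon is used more often. The first fell by 32.6 points (48.3% ± 9.51 against 80.9% ± 6.67, SD, n = 3 each) with an FDR of 0.00103 in the authors' deposited table. The second fell by 10.9 points (7.40% ± 1.85 against 18.3% ± 1.80, SD, n = 3 each) with an FDR of 5.39e-11 in the authors' deposited table, a smaller change with a smaller spread.

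The 3 remaining Rapgef1 events are pairs of mutually exclusive exons, in which the value gives the share of the first exon against the 96-base exon. That reading was checked on plus-strand genes: the value moved with the first exon in 38 of 38 comparisons with skipped-exon events at the same exons. The Rapgef1 events themselves are among these, and comparisons within a gene are not independent. The 258-base exon after the 156-base exon was at 91.3%, 94.8% and 94.3% in 480/480 myotubes, against 82.1%, 81.4% and 85.5% in wild type, a rise of 10.5 points (FDR 5.35e-10 in the authors' deposited table). After the 203-base exon the 258-base exon was at 89.2%, 93.4% and 92.8% in 480/480, against 79.2%, 77.6% and 82.4% in wild type, a rise of 12.1 points (FDR 2.26e-09 in the authors' deposited table). A 153-base exon was set against the 96-base exon in the last event. Its share was 79.7%, 87.3% and 85.7% in 480/480, against 64.7%, 57.5% and 67.4% in wild type, a rise of 21 points (FDR 5.50e-09 in the authors' deposited table). No groups overlapped in these events. The 153- and 156-base exons differ by 3 bases at their start.

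**Figure D4:**
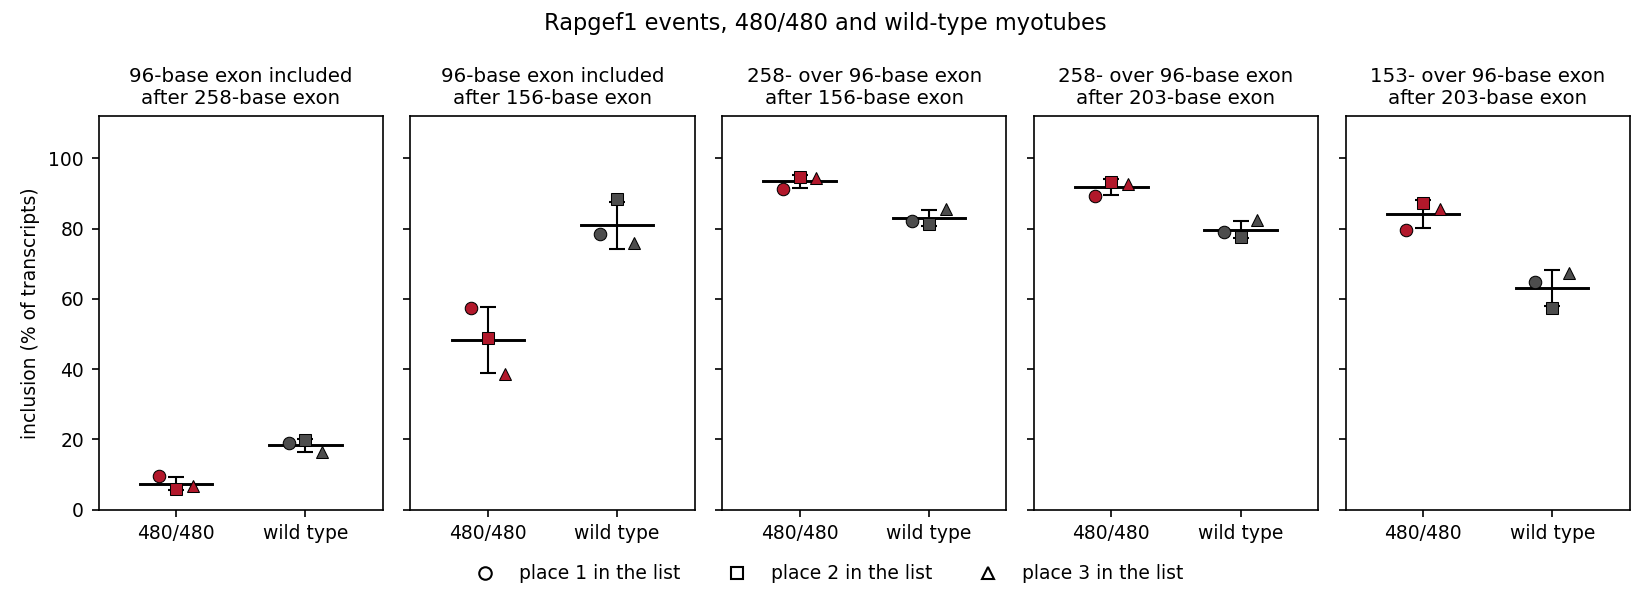
The 5 Rapgef1 events in 480/480 and wild-type myotubes, with inclusion in percent on the vertical axis; the left panels give inclusion of the 96-base exon and the others the share of a 258- or 153-base exon against it. Each symbol is 1 library and bars show the mean with the SD (n = 3); 480/480 libraries lie below wild type in the left 2 panels and above it in the other 3.

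The Rapgef1 exons lie in the middle of the coding sequence and all keep the frame. The longest form read here has 1218 codons with the exons of 258 bases (86 codons, from codon 643) and 96 bases (32 codons, from codon 729). Without the 96-base exon it has 1186 codons, without the 258-base exon 1132 and without either 1100. Of 7 annotated transcripts, 1 holds both exons, 2 hold the 258-base exon without the other, and 0 hold the 96-base exon without the 258-base exon.

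Of the 6 skipped exons, those of Jag2, Rapgef1 and Robo2 have lengths that are multiples of 3, as do 59.9% of the 307 different skipped exons of all tables. The exons differ in the muscleblind words printed in capitals above. Only the transcript strand of the exons was searched, and the introns around them were not analysed here. Among 139 skipped exons of 90 to 190 bases in the tables, 82.7% held at least 1 word, and the median was 1.2 words per 100 bases with quartiles of 0.667 and 2.13. Jag2 held 5 words (4.39 per 100 bases), Fgfr3 IIIb 2 (1.32), Rxfp1 2 (1.89), Robo2 1 (0.546), and the Rapgef1 96-base exon and the Sema6c exon 0. The Fgfr3 IIIc exon held 4 (2.76 per 100 bases). The Rapgef1 258-base exon, not printed above and longer than the exons compared, held 5 (1.94 per 100 bases). These matches are a description of letters and not sites.

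The members' changes are set here beside all events of the same comparison as a description only, since these values chose the genes. Their median absolute change, the size without its direction, was 26.3 points over 9 events in 480/480, against 21 over all 243. In +/480 it was 42.4 points over 5 events, against 23.8 over all 110. Of the 9 events 6 rose and 3 fell (39.1% of all 243 rose), and of the 5 events 4 rose and 1 fell (50% of all 110 rose), where the mutually exclusive exons of Rapgef1 count for their first exon. In 480/480 myotubes 6 of 9 member events had an SD under 10 points in both groups (69.1% of all events), but in +/480 myotubes 0 of 5 did (43.6% of all events). The authors' FDR was 0.01 or less for 9 of 9 events in 480/480 (70.8% of all) and for 2 of 5 in +/480 (48.2% of all), those of Robo2 and Sema6c. The 480/480 counts are not of independent events: 5 of the 9 concern the same 96-base exon of Rapgef1, and the 2 Fgfr3 events have the same excluded form. A lower inclusion or share of that Rapgef1 exon enters as 3 rises and 2 falls. No test was made of these shares.

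**Figure D5:**
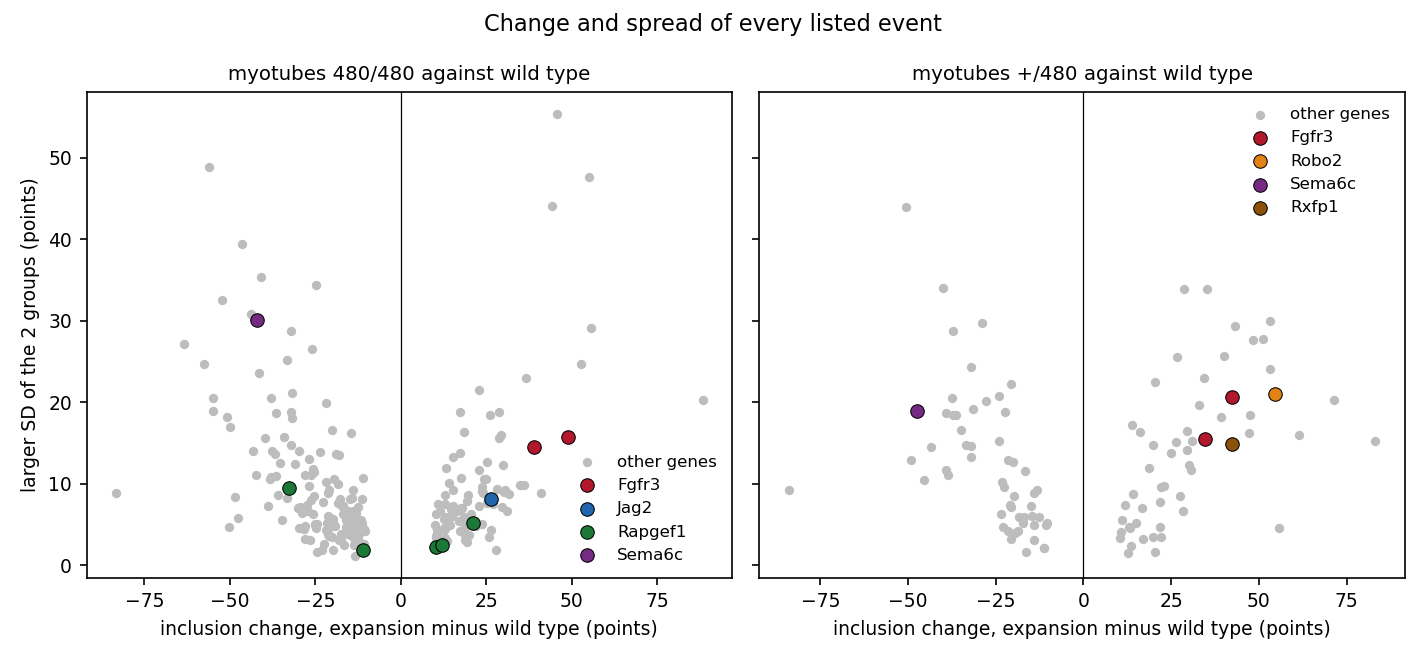
Inclusion change (horizontal axis, expansion minus wild type, in percentage points) against the larger SD of the 2 groups (vertical axis, in points) for every event listed in 480/480 (left) and +/480 (right) myotubes. Coloured points are events of the 6 genes and grey points all others; the Rapgef1 and Jag2 events have SDs under 10 points, and all 5 member events of +/480 have a larger SD.

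The skipped exons most like the members in the same table were found by the mean absolute difference over the 6 library values. For Jag2 these were Stx2 (4.93 points) and Myof (6.77 points), and for Fgfr3 in 480/480 Stx2 (9.52 points) and Csnk1g1 (10.8 points). In +/480 myotubes the 2 closest to Fgfr3 were both skipped-exon events of Kazald1 (12.2 and 13.0 points). Whether these concern the same exon was not checked. For Rapgef1 they were Reep1 (4.65) and Mlip (6.17 points) after the 156-base exon, and Tjp1 (1.42) and Clasp1 (2.03 points) after the 258-base exon. Robo2 was closest to Huwe1 (4.70 points) and to Rxfp1 (10.1 points), and Rxfp1 to Cdc42bpa (8.70 points) and Gabpb2 (9.88 points). Sema6c was closest to Hivep2 (10.7) and Ggta1 (11.2 points) in 480/480, and to Clasp1 (8.80) and Fam151b (10.4 points) in +/480. These distances share libraries and limits at 0% and 100%.

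The pathway lists were also searched for events in myotubes. Of 53 FGF pathway genes Fgfr3 was the 1 with events, of 88 guidance genes Robo2 and Sema6c were the 2, of 30 Rap1 and C3G genes Rapgef1 and of 28 relaxin and cyclic AMP genes Rxfp1. Of the 48 Notch pathway genes, Jag2 is the one described here. These are the genes the description started from, and tables of selected events do not give the share of all measured genes with an event, so the counts are read against no background. Of 20 markers of other cells found in muscle, 0 had an event in any table, which says nothing about the levels of those genes.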

How the data were processed

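Libraries were paired-end and made from ribosomal RNA-depleted total RNA with a directional kit, per the labels' protocols. FastQC, STAR and the mm10 build are named in the submitters' processing notes. What program called the splicing events was not stated there. The authors deposited inclusion as a fraction from 0 to 1 per library, with a p-value and an FDR per event, and kept events with average reads of at least 5, FDR up to 0.05 and differences of at least 0.1, per the file headers. Their difference is wild type minus expansion. Here fractions became percentages and changes were computed as expansion minus wild type, within 0.05 points of the deposited values. The deposited lists carry no replicate number, so a library is known by its place in the list. Depth per library is unknown. Of 33 labelled libraries, 12 in 4 groups were not analysed here, and for 480/480 choroid plexus the tables hold 2 of 3 libraries.

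The members, gene lists and comparisons were chosen with earlier results of these data known. Named beyond the 6 genes were the 2 most similar skipped exons per member event and the genes of 6 pathway and marker lists with an event, of which 1 is not reported here. All 376 gene IDs matched a symbol. Exons, reading frames and sequences came from GENCODE M21. Alternatives were an FDR of 0.01, a change of 20 points, an SD under 10 points, medians and leaving out each library. The change and the overlap call were tested on simulated data, made with known shifts for the skipped exons of 480/480 myotubes. The simulated libraries had a small spread around levels near the middle of the scale. This checked the computation only, and not events with a wide spread or values at 100%. Python 3.11.15, NumPy 2.4.6 and matplotlib 3.10.9 were used.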

Additional observations from a re-analysis of the deposited data

How the results depend on the processing

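With an FDR of 0.01 or less, 2 of the 5 events of the 6 genes remained in +/480 myotubes (Robo2 and Sema6c), and both of these had groups that do not overlap. No event of the 5 had an SD under 10 points in both groups (0). With a change of 20 points or more, 5 events without overlap remained in 480/480 myotubes in place of 8, since 3 Rapgef1 events are smaller. Leaving out 1 library at a time, the number of events without overlap ranged from 8 to 9 in 480/480 and stayed at 5 in +/480. All 84 changes recomputed without 1 library, and all 14 recomputed with medians, kept their direction. The largest move with medians was that of Sema6c in 480/480, to -68.7 points in place of -42.1. The difference between 480/480 and +/480 ranged from -1.93 to 18.4 points for the Fgfr3 exon, from -2.38 to 13.2 for its intron and from -12.0 to 14.8 for Sema6c. Introns beside the exons were not searched for words (not run), since sequence came from transcripts alone. No paired analysis was possible because the lists of values carry no replicate numbers. The authors' FDR could not be recomputed without counts, and with 3 libraries per group each mean rests on few values.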

Other observations

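Outside myotubes, 4 genes of the same pathway lists were listed. In choroid plexus, Numb, an inhibitor of Notch signalling, was included at a skipped exon (chromosome 12, 83797197 to 83797343) at 12.8% and 19.9% in 480/480, against 29.0%, 37.1% and 35.5% in wild type, with no overlap. The change was -17.5 points (n = 2 against n = 3; FDR 0.00410 in the authors' deposited table). Spred3, an inhibitor of growth factor signalling to ERK, was at 75.4% and 86.1% for the longer form at a 3′ splice site in 480/480 choroid plexus, against 100%, 91.2% and 100% in wild type, a change of -16.3 points (FDR 0.0470 in the authors' deposited table). Unc5b, a netrin receptor, was at 100% in both 480/480 choroid plexus libraries, against 100%, 69.8% and 70.9% in wild type, so its groups overlap (FDR 0.0407 in the authors' deposited table).

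In TA, retention of an intron of Pde4c, a phosphodiesterase that breaks down cyclic AMP, was 54.9%, 47.9% and 44.7% in 480/480, against 82.4%, 81.4% and 100% in wild type. The groups do not overlap, and the change was -38.8 points (n = 3 each; FDR 0.00511 in the authors' deposited table).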
